A study of Mus musculus with 12 samples.

Results

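Ly6a, Ly6i, Ly6c1, Ly6c2, Ly6d, Ly6e and Plac8 were described across migratory dendritic cells (DCs) of 3 mouse organs. These 7 genes, of 55401 in the deposited tables, were taken by symbol, and all 7 were among the 44624 genes that passed a filter on low counts. The members were selected on their levels and differences between tissues in these same libraries, so both are given as a description, without p-values. Where a member is said to be called, or not, in a fit over all genes, that too describes these libraries and supports no difference. Bulk polyA RNA was sequenced from DCs of liver (4 libraries), pancreas (4 libraries) and duodenum (4 libraries) of B6 mice aged 6 to 8 weeks. Each library was a pool of 2 mice, and no treatment or genetic change is named for any group. The sort took live CD45+ cells that lacked lineage markers and CD11b and carried CD11c, CD103 and high MHC class II, the surface profile of type 1 conventional DCs (cDC1).

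Ly6 proteins are small, cysteine-rich proteins of the Ly6/uPAR family, and the 6 described here are held at the outer face of the cell membrane by a glycosylphosphatidylinositol (GPI) anchor. Several are used as surface markers of blood cells: Sca-1, the product of Ly6a, of haematopoietic stem and activated lymphoid cells, and Ly6C, the product of Ly6c1 and Ly6c2, of monocytes and of subsets of T cells, plasmacytoid DCs and endothelium. Ly6a and Ly6e are known to be induced by interferons. Plac8 belongs to another family: it encodes a small intracellular cysteine-rich protein found in myeloid and lymphoid cells and in some epithelia.

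Total estimated counts were 220897606 to 356072585 per library. Defining genes of cDC1 were present in all tissues: Xcr1 averaged 148 TPM (transcript abundance scaled for gene length and library depth) in liver, 92.0 TPM in pancreas and 115 TPM in duodenum, and Clec9a averaged 241, 190 and 175 TPM in that order. Summed markers of plasma cells stood apart between the tissues, at 150 to 1489 TPM in liver, 160 to 1761 TPM in pancreas and 9748 to 14730 TPM in duodenum. Within liver, library 2 was the highest of them, and within pancreas libraries 3 and 4 were, at 1527 and 1761 TPM. In bulk RNA, fewer cells that carry a transcript and less of it per cell cannot be told apart.

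All 6 Ly6 genes lie on chromosome 15, within a run of 13 protein-coding genes in RefSeq annotation of GRCm38.p6, where Ly6e, Ly6i, Ly6a, Ly6c1 and Ly6c2 are immediate neighbours in that order. Plac8 lies on chromosome 5. The coding sequences of Ly6c1 and Ly6c2 are printed because they are the closest pair, which decides how well reads can be assigned to one or the other. From GENCODE M21 transcripts (GRCm38), each has 393 coding bases, or 131 codons, of which 12 encode cysteine. They differ at 9 positions, 6 of them within bases 1 to 90 and 3 within bases 241 to 393, counted from the start codon, and share an uninterrupted run of 188 bases between. Both stretches are shown 5′ to 3′ with the differing bases in capitals.
Ly6c1 bases 1 to 90: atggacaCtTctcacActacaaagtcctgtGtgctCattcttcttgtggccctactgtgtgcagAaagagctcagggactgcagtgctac
Ly6c2 bases 1 to 90: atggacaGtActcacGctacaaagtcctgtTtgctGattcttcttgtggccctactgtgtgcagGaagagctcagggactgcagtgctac
Ly6c1 bases 241 to 393: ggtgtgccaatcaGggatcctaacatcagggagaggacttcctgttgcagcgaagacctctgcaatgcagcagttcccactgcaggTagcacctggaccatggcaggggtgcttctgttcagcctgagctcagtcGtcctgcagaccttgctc
Ly6c2 bases 241 to 393: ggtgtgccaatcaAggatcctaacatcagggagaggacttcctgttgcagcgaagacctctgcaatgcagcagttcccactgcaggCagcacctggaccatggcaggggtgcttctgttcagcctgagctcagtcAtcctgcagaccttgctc

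Coding identity within this group was 97.7% for Ly6c1 and Ly6c2 and 86.3% for Ly6a and Ly6i, and 81.3% to 81.8% between the other pairs of these 4 genes. Ly6d and Ly6e stood apart from them and from each other, at 48.3% to 52.2%, which lies close to the 44.5% to 46.9% that the 6 Ly6 genes reached with the unrelated Plac8. Short words of 31 bases from the GENCODE M21 transcripts show what a read-matching method can separate. Of these words, 53.2% occurred in no other gene for Ly6c1, 68.1% for Ly6a, 76.2% for Ly6c2, 80.8% for Ly6i, 99.6% for Ly6e and 100% for Ly6d and Plac8. Ly6c1 and Ly6c2 shared 581 words, and Ly6a shared 276 with Ly6c1. The level of Ly6c1 is therefore uncertain where Ly6c2 is many times higher, and the transcript set the authors used is not stated in the sources used here.

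**Figure D1:**
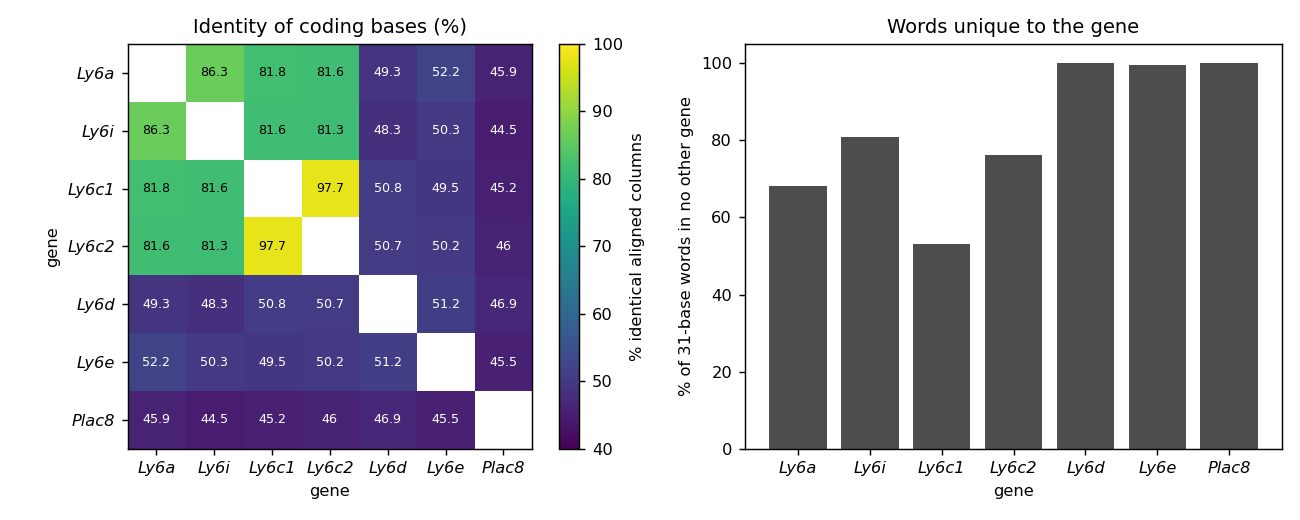
Left, identity (%) of aligned coding bases between each pair of the 7 genes; right, percentage of each gene's 31-base words found in no other gene. Ly6c1 and Ly6c2 are 97.7% identical and Ly6c1 has the lowest share of words of its own, 53.2%.

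Windows of 250 bases before a transcription start were in the RefSeq promoter table (GRCm38.p6) for Ly6c1, Ly6c2 and Plac8, 3 of the 7 genes. They are printed because the Ly6c pair is nearly identical in coding sequence but, as described further on, far apart in level, and because Ly6c2 and Plac8 both had their lowest mean in pancreas. The first listed start was used, at chr15:75048838-75049087 for Ly6c1, chr15:75111972-75112221 for Ly6c2 and chr5:100572206-100572455 for Plac8, all on the minus strand and written 5′ to 3′ along that strand.
Ly6c1: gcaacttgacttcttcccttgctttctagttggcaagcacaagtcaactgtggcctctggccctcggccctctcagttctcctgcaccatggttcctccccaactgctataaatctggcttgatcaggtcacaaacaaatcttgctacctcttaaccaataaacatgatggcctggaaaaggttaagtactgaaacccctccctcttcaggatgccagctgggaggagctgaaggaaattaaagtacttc
Ly6c2: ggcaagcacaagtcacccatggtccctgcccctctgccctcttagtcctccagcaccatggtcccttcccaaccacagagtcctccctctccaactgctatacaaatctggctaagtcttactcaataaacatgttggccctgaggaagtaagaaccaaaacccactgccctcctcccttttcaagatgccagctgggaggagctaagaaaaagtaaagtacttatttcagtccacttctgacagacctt
Plac8: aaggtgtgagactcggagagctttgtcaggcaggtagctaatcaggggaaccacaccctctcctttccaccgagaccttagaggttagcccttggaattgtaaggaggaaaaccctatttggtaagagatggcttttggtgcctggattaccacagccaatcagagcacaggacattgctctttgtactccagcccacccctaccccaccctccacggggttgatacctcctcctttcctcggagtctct

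The Ly6c1 and Ly6c2 windows aligned over 227 columns with 72.2% identity, less than their coding sequences. Each was less like the Plac8 window, at 48.6% for Ly6c1 and 48.2% for Ly6c2. A pair of GAAA spaced by 2 bases of any kind, the form bound by interferon-regulatory factors, was not present in these windows on either strand, nor in the window of the second listed start of each gene. On either strand, the spaced GAAA pair was found in 2.98% of 32851 windows of that length. The absence says only that these letters are not in these windows.

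Ly6a was the gene that set liver apart. It was measured at 122, 124, 106 and 145 TPM in liver libraries 1 to 4, against 6.39, 6.98, 10.3 and 13.4 TPM in pancreas and 15.2, 5.38, 11.99 and 17.1 TPM in duodenum. Every liver library lay above every library of the other tissues, and pancreas and duodenum overlapped. Means were 125 ± 16.1 TPM in liver, 9.26 ± 3.24 TPM in pancreas and 12.4 ± 5.13 TPM in duodenum (SD, n = 4 each). From the counts, the log2 difference was 3.14 ± 0.35 (SE) for liver against duodenum, or 8.81-fold higher, and 3.64 ± 0.36 for liver against pancreas, or 12.5-fold higher. For pancreas against duodenum it was -0.50 ± 0.33, with a 95% interval of -1.15 to 0.14. These standard errors and intervals cover the spread between these libraries.

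**Figure D2:**
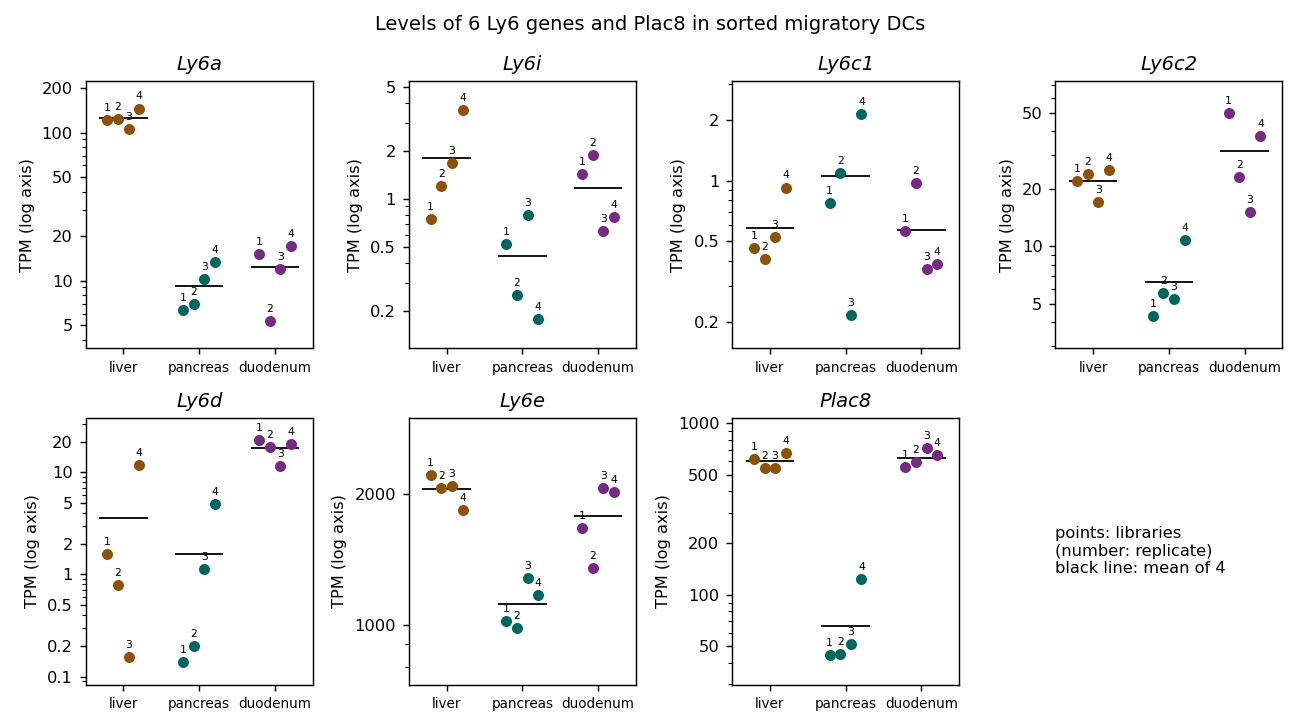
TPM of the 7 genes (log axis) in 4 libraries each of liver, pancreas and duodenum, numbered by replicate, with the mean as a line. Ly6a is high in all 4 liver libraries, Plac8 is low in all 4 pancreas libraries, and Ly6d is high in all 4 duodenum libraries and in liver 4.

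Ly6i, the gene closest to Ly6a in sequence, was measured at about 1 TPM. Its levels were 0.746, 1.20, 1.67 and 3.60 TPM in liver, 0.527, 0.252, 0.800 and 0.178 TPM in pancreas and 1.43, 1.87, 0.632 and 0.775 TPM in duodenum. The tissues overlapped in all 3 comparisons, with liver and duodenum libraries mostly above those of pancreas. Differences on the log2 scale were 0.48 ± 0.53 for liver against duodenum, -1.44 ± 0.55 for pancreas against duodenum and 1.92 ± 0.55 for liver against pancreas (SE). Behind these values stood 40.6 to 736 estimated counts per library, against 1246 to 27174 for Ly6a.

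Ly6a2, a neighbour of Ly6c2 that was added after its values were seen, ran low in all tissues. It averaged 2.42 ± 1.35 TPM in liver, 0.713 ± 0.543 TPM in pancreas and 0.347 ± 0.220 TPM in duodenum (SD, n = 4 each). Liver libraries lay above all duodenum libraries, with a log2 difference of 2.60 ± 0.61 (SE), and overlapped those of pancreas, with a log2 difference of 1.67 ± 0.58. Summing the counts of Ly6a and Ly6a2 before the fit left the log2 differences at 3.13 for liver against duodenum, -0.46 for pancreas against duodenum and 3.59 for liver against pancreas.

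Ly6c2 was lowest in pancreas. It was measured at 21.9, 23.9, 17.1 and 25.1 TPM in liver, 4.30, 5.68, 5.29 and 10.8 TPM in pancreas, and 50.0, 23.1, 15.2 and 37.6 TPM in duodenum. No pancreas library reached the lowest library of either other tissue, while liver and duodenum overlapped and duodenum varied most. The means were 22.0 ± 3.50 TPM in liver, 6.53 ± 2.94 TPM in pancreas and 31.5 ± 15.5 TPM in duodenum (SD, n = 4 each). The log2 difference was -2.35 ± 0.37 for pancreas against duodenum, 1.65 ± 0.36 for liver against pancreas and -0.70 ± 0.35 for liver against duodenum (SE).

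Ly6c1, its near-identical neighbour, averaged 0.581 TPM in liver, 1.06 TPM in pancreas and 0.572 TPM in duodenum. Its levels were 0.464, 0.409, 0.525 and 0.925 TPM in liver, 0.776, 1.09, 0.215 and 2.14 TPM in pancreas, and 0.564, 0.972, 0.365 and 0.387 TPM in duodenum. The tissues overlapped in every comparison, at 32.5 to 306 estimated counts per library. Ly6c1 made up 1.69% to 3.55% of the summed TPM of Ly6c1 and Ly6c2 in liver, 3.91% to 16.5% in pancreas and 1.02% to 4.04% in duodenum. Its highest library, pancreas 4, was also the pancreas library with most Ly6c2. With both genes summed before the fit, the log2 difference was -2.21 for pancreas against duodenum and 1.52 for liver against pancreas, close to those of Ly6c2 alone, but the liver to pancreas difference no longer passed the threshold for a call, an edgeR adjusted p under 0.05.

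Ly6d, known from lymphoid progenitors and from B cell and plasmacytoid DC development, varied more between liver libraries and between pancreas libraries than any other of the 7 genes. It was measured at 1.57, 0.782, 0.155 and 11.7 TPM in liver, 0.139, 0.197, 1.13 and 4.91 TPM in pancreas, and 20.5, 17.8, 11.5 and 18.9 TPM in duodenum. In TPM, the 4 duodenum libraries were above all pancreas libraries and above liver 1, 2 and 3, while liver 4 lay just inside the duodenum range. In depth-scaled counts (CPM), liver 4 (6.26) lay below the lowest duodenum library, duodenum 3 (7.13). Means were 3.55 ± 5.45 TPM in liver, 1.59 ± 2.26 TPM in pancreas and 17.2 ± 3.95 TPM in duodenum (SD, n = 4 each), so in liver and pancreas the SD exceeded the mean. The log2 difference was -2.47 ± 1.29 for liver against duodenum and -3.49 ± 1.35 for pancreas against duodenum (SE), neither of them called by edgeR with all libraries. Among the 24 alternative settings, Ly6d was called in 6 for liver against duodenum and in 7 for pancreas against duodenum. Without liver 4 the difference of liver against duodenum was -4.60, and that of liver against pancreas turned to -1.07 from 1.02 with all libraries; neither was called.

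Some, but not all, markers of other cell types were high in the libraries high in Ly6d. Siglech, a surface lectin of plasmacytoid DCs chosen after its values were seen, was measured at 4.43, 4.54, 5.35 and 11.3 TPM in liver, 4.65, 3.28, 4.33 and 8.83 TPM in pancreas, and 10.6, 7.13, 7.04 and 8.41 TPM in duodenum. Its highest library within liver and within pancreas was the same as that of Ly6d. Of the 14 plasmacytoid DC markers, 9 were highest and 3 lowest in liver 4 among liver libraries, and 7 were highest in pancreas 4 among pancreas libraries. Those lowest in liver 4 were Tcf4 (11.4 TPM), Pld4 (234 TPM) and Cd300c (27.2 TPM). The 14 plasmacytoid DC markers as a whole summed to 420 to 443 TPM in liver, 368 to 419 TPM in pancreas and 335 to 416 TPM in duodenum, and none was at 0 in all libraries of a tissue. Most of that sum was Pld4 and Bst2. Pld4 averaged 249 TPM in liver, 217 TPM in pancreas and 181 TPM in duodenum. Bst2 averaged 109, 77.3 and 129 TPM in that order. Of the 14 markers, 1 was called higher and 4 lower in liver against duodenum, 2 higher and 5 lower in pancreas against duodenum, and 1 higher in liver against pancreas. In the same order, 3.37% and 3.95%, 3.76% and 3.94%, and 0.426% and 0.681% of all genes were called higher and lower. Of the 14, Ccr9, a homing receptor for the small intestine, was lower in both comparisons with duodenum. Its log2 differences were -1.25 ± 0.28 for liver against duodenum (SE, edgeR adjusted p = 0.0128) and -2.72 ± 0.29 for pancreas against duodenum (edgeR adjusted p = 3.37e-05). Cd300c went the other way, averaging 30.2 TPM in liver and 30.4 TPM in pancreas against 5.94 TPM in duodenum.

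The 10 B cell markers summed to 5.22 to 7.70 TPM in liver, 6.62 to 11.9975 TPM in pancreas and 14.1 to 19.6 TPM in duodenum. Within liver the sum was highest in library 2, at 7.70 TPM, with 7.23 TPM in library 4, and within pancreas it was highest in library 4. Of the 10, 3 were highest in liver 4 among liver libraries and 7 in pancreas 4 among pancreas libraries. Of these 10, Cd79b, a subunit of the B cell receptor, and Vpreb3 were called lower in liver against duodenum, and Vpreb3 alone in pancreas against duodenum. The shares of all genes called lower there were 3.95% and 3.94%. Vpreb3 had log2 differences of -3.16 ± 0.62 for liver against duodenum (SE; edgeR adjusted p = 0.00554) and -2.67 ± 0.60 for pancreas against duodenum (adjusted p = 0.0125). No B cell marker was called in liver against pancreas, where edgeR gave an unadjusted p under 0.05 for 2 and DESeq2 called 1. The part of these cells in the Ly6d levels was not tested.

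Ly6e, whose product is known as an interferon-induced restriction factor for some viruses and as a receptor for mouse syncytin-A, was by far the most abundant of the Ly6 genes. It was measured at 2215, 2062, 2092 and 1833 TPM in liver, 1017, 983, 1282 and 1170 TPM in pancreas, and 1672, 1348, 2067 and 2019 TPM in duodenum. In TPM, all pancreas libraries lay below all libraries of liver and of duodenum, by a narrow margin for duodenum 2, and liver and duodenum overlapped. In CPM, the scale nearer to the log2 differences, pancreas 3 (1265) lay above duodenum 2 (1167), so pancreas and duodenum overlapped there. The means of 2051 ± 159 TPM in liver, 1113 ± 139 TPM in pancreas and 1776 ± 336 TPM in duodenum (SD, n = 4 each) ranked 76, 138 and 86 among all genes of that tissue. Ly6e alone made up 90.8% to 98.8% of the summed TPM of the 6 Ly6 genes in a library. That sum was 2203 ± 140 TPM in liver, 1132 ± 143 TPM in pancreas and 1839 ± 336 TPM in duodenum.

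On the log2 scale Ly6e differed by -0.74 ± 0.17 for pancreas against duodenum and by 0.78 ± 0.17 for liver against pancreas (SE), or 1.68-fold lower and 1.72-fold higher. For liver against duodenum the difference was 0.04 ± 0.17, with a 95% interval of -0.30 to 0.37, and its sign changed between processing settings, from -0.16 to 0.22. Over all 12 libraries Ly6e had the smallest spread of the 7 genes (SD 0.452 in log2 CPM), though Plac8 varied less within duodenum. Its differences were the smallest among those called.

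Plac8 set pancreas apart. It was measured at 622, 550, 552 and 670 TPM in liver and at 44.6, 45.3, 51.5 and 123 TPM in pancreas, against 556, 592, 721 and 654 TPM in duodenum. Every pancreas library lay below every library of the other 2 tissues, which overlapped. The means were 598 ± 58.5 TPM in liver, 66.1 ± 38.0 TPM in pancreas and 631 ± 72.4 TPM in duodenum (SD, n = 4 each), which placed Plac8 in the top 0.359% of genes in liver, 2.52% in pancreas and 0.381% in duodenum. The log2 difference was -3.33 ± 0.30 for pancreas against duodenum, or 10.0-fold lower, and 3.09 ± 0.29 for liver against pancreas, or 8.49-fold higher (SE). Liver against duodenum differed by -0.24 ± 0.27, with a 95% interval of -0.77 to 0.29.

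One library held most of the spread of Plac8 in pancreas. Pancreas 4, at 123 TPM, was the highest, and without it the log2 difference of pancreas against duodenum was -3.86. Summed plasma cell markers were also highest in pancreas 4 within that tissue, and pancreas 3, with 1527 TPM of them, had 51.5 TPM of Plac8. Within pancreas, library 4 was also highest for 7 of 14 plasmacytoid DC markers and lowest for 0. It was highest for 7 of 10 B cell markers and lowest for 1. The part of plasma cells, plasmacytoid DCs or B cells in the Plac8 levels was not tested. Plac8 and Ly6c2 are known to be expressed in monocytes. The 14 monocyte markers summed to 496 to 595 TPM in liver, 835 to 1008 TPM in pancreas and 251 to 316 TPM in duodenum. Most of that sum was Lyz2, a lysozyme also made by DCs, which was 2.78-fold higher in pancreas than in duodenum (log2 difference 1.48 ± 0.14, SE; edgeR adjusted p = 1.24e-05). By mean TPM, 3 of the 14 markers were highest in liver, 9 in pancreas and 2 in duodenum. Of the 14 monocyte markers, 2 were called higher and 1 lower in liver against duodenum, 4 higher and 1 lower in pancreas against duodenum, and 2 lower in liver against pancreas. For all genes the shares higher and lower were 3.37% and 3.95%, 3.76% and 3.94%, and 0.426% and 0.681% in these comparisons in turn. None of the 14 was at 0 in all libraries of a tissue, though 7 averaged below 1 TPM in liver, 7 in pancreas and 6 in duodenum. The part of such cells in the levels of Plac8 and Ly6c2 was not tested.

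**Figure D3:**
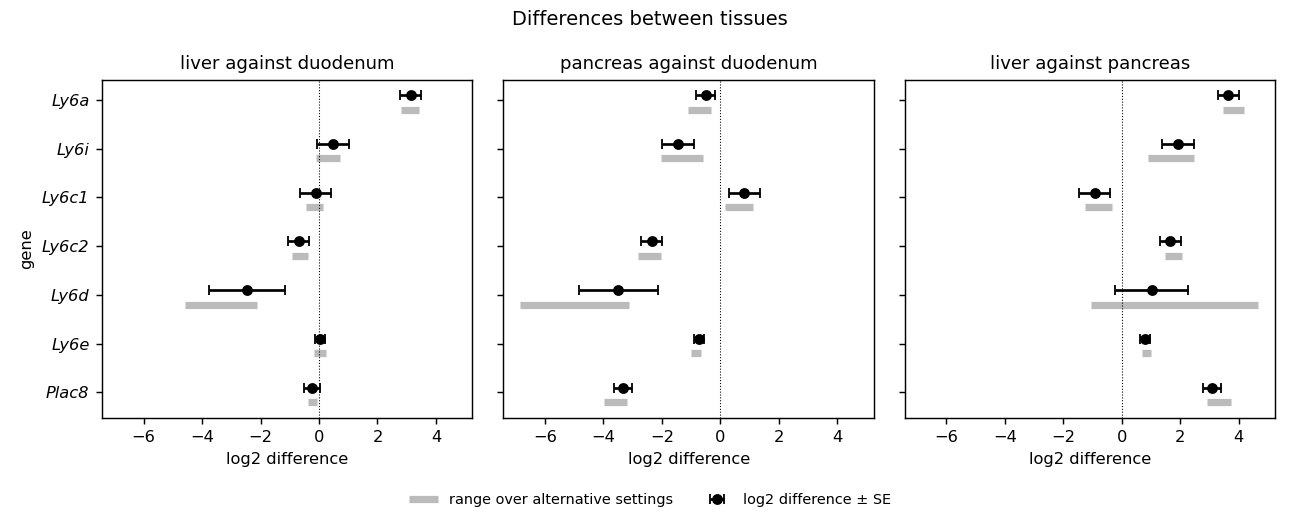
Log2 difference (points, with SE) of each gene for liver against duodenum, pancreas against duodenum and liver against pancreas, from the counts; positive values mean higher in the first tissue named. Grey bars span the values under all alternative settings: they are short for Ly6e and reach from -6.84 to -3.12 for Ly6d in pancreas against duodenum.

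Of the 7 genes, Ly6a was called higher in liver against duodenum, where 3.37% of all 44624 genes were called higher and 3.95% lower. Ly6c2, Ly6e and Plac8 were called lower in pancreas against duodenum, where 3.76% of all genes were called higher and 3.94% lower. In liver against pancreas, Ly6a, Ly6c2, Ly6e and Plac8 were called higher, where 0.426% of all genes were called higher and 0.681% lower. The balance of these calls over all genes depends on scaling. With TMM they were 1502 higher and 1763 lower in liver against duodenum, 1680 and 1757 in pancreas against duodenum, and 190 and 304 in liver against pancreas. With RLE size factors the first was 1078 higher and 1976 lower, and with library totals 2642 and 1520. Pancreas against duodenum had 1294 higher and 1943 lower with RLE, and 2354 and 1790 with library totals. Liver against pancreas had 428 higher and 392 lower with library totals. The median log2 difference of the 7 genes was -0.12, -1.44 and 1.65 in these comparisons in turn, against 0.10, 0.09 and 0.01 for all genes tested. These comparisons share libraries, and the 7 genes were chosen for such differences, so nothing is read from the counts.

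Which of the 7 genes passed the threshold varied with the settings, which describes the processing of the libraries they were chosen on and adds no support for a difference. Ly6a against both other tissues, Plac8 in both comparisons with pancreas, and Ly6c2 in pancreas against duodenum were called under each of the 24 alternative settings. In liver against pancreas, Ly6c2 was called in 14 and Ly6e in 12 of them, and the call of both ended with RLE size factors, without the 3 libraries highest in plasma cell markers within liver and pancreas, and without any 1 of liver 1, liver 2, liver 3, liver 4, pancreas 1, pancreas 2 or duodenum 4. The call of Ly6c2 there also ended without pancreas 3, and that of Ly6e without pancreas 4 or duodenum 1. The call of Ly6e in pancreas against duodenum ended without duodenum 3 and without pancreas 2. Ly6a was called lower in pancreas against duodenum only without duodenum 2, and Ly6i only without pancreas 3 and under DESeq2, among the 24.

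Liver 4 and pancreas 4 held the highest values of most of these genes within their tissues. Liver 4 was the highest liver library for 6 of the 7 genes, all but Ly6e, for which it was the lowest. Pancreas 4 was the highest pancreas library for 5 of them, Ly6a, Ly6c1, Ly6c2, Ly6d and Plac8. In log2 CPM (depth-scaled counts) relative to the tissue mean, liver 4 stood at 3.19 for Ly6d, 1.21 for Ly6i and 0.70 for Ly6c1, while pancreas 4 stood at 2.91 for Ly6d, 1.40 for Ly6c1, 1.03 for Plac8 and 0.81 for Ly6c2. Leaving out both libraries together, a setting added after the data were seen, kept the calls of Ly6a, Ly6c2 and Plac8, added Ly6d as lower in liver than in duodenum (log2 difference -4.55) and lower in pancreas than in duodenum (-5.12), and ended the call of Ly6e in liver against pancreas.

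**Figure D4:**
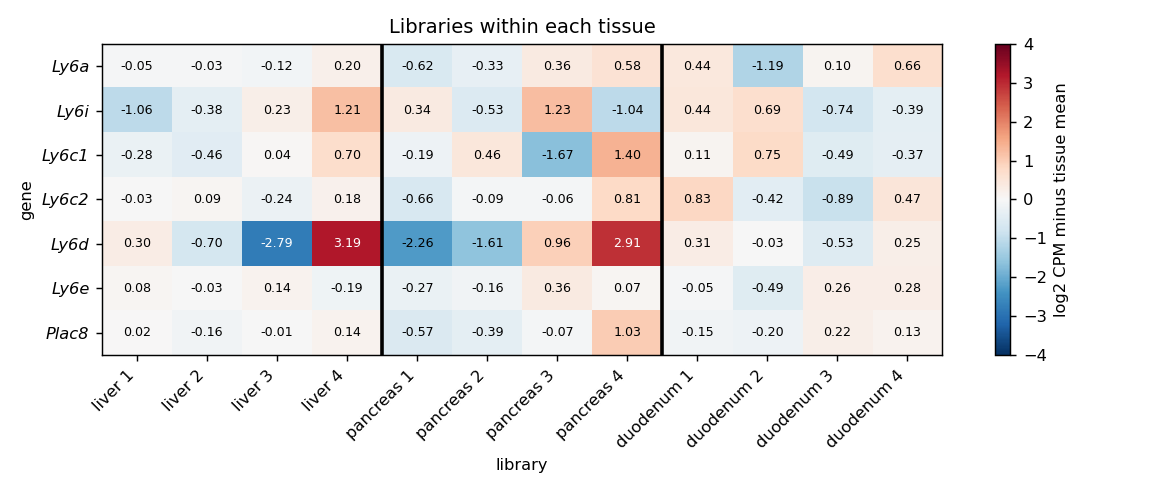
Log2 CPM of each gene in each library minus the mean of its tissue (colour and printed value). Ly6d has the widest range, from -2.79 in liver 3 to 3.19 in liver 4, and liver 4 and pancreas 4 are above the tissue mean for most genes.

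Genes whose pattern over the 12 libraries was closest to each of the 7 were found among 9525 genes with a mean of at least 5 CPM, by the root-mean-square (RMS) difference of log2 CPM after centring each gene on its own mean. The closest to Ly6a was Cd34, a sialomucin known from stem cells and endothelium, at an RMS difference of 0.578 where Ly6a itself varied by 1.73. Cd34 averaged 34.3 TPM in liver, 4.46 TPM in pancreas and 5.59 TPM in duodenum. Sema4c, a semaphorin, followed at 0.763. The closest to Plac8 was Tgm2, a transglutaminase, at 0.568 against a variation of 1.62, with 3.38 TPM in liver, 0.273 TPM in pancreas and 5.53 TPM in duodenum. Tlr12, a sensor of profilin that is known from mouse DCs, was next at 0.588, with 38.2 TPM in liver, 8.77 TPM in pancreas and 72.6 TPM in duodenum.

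Ly6c2 lay closest to Cltrn (0.481) and to Nedd4, a ubiquitin ligase (0.486), and itself varied by 1.10. Ly6e, which varied by 0.433, lay closest to Tm9sf2 (0.134) and Nampt, an enzyme of NAD salvage (0.146). The neighbours of the other genes were less close relative to their own variation: Itm2a (1.37) and Ifitm6 (1.41) for Ly6d, which varied by 2.70, Tnf (0.737) and Sdhaf4 (0.759) for Ly6i, which varied by 1.14, and Fanci (0.609) and Vps13d (0.625) for Ly6c1, which varied by 0.794. Ifitm6 averaged 9.80 TPM in liver, 3.97 TPM in pancreas and 128 TPM in duodenum, so like Ly6d it had its highest mean in duodenum and its lowest in pancreas. Since each neighbour was picked as the closest of many, these values are a description.

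The rest of the Ly6/uPAR family was little expressed. Of 37 further family members listed, 36 were matched and tested, and their summed TPM was 20.9 to 25.9 in liver, 20.99 to 24.6 in pancreas and 21.4 to 22.9 in duodenum. Of these 36, 29 averaged below 1 TPM in liver, 29 in pancreas and 28 in duodenum. In liver against duodenum 3 of them were called (8.33%), Ly6h higher and Ly6k and Plaur lower, beside 3.37% higher and 3.95% lower of all genes. In pancreas against duodenum 2 were called (5.56%), Ly6h higher and Cd59a lower, beside 3.76% higher and 3.94% lower of all genes. Both shares are near those of all genes, so they are no result about the family. The list's median log2 difference was 0.25 for liver against duodenum, 0.21 for pancreas against duodenum and 0.01 for liver against pancreas.

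Ly6h averaged 3.70 TPM in liver, 3.34 TPM in pancreas and 1.58 TPM in duodenum, with log2 differences of 1.06 ± 0.18 for liver against duodenum (SE; edgeR adjusted p = 0.00184) and 1.00 ± 0.18 for pancreas against duodenum (adjusted p = 0.00239). It is otherwise known from the brain. Plaur, the urokinase receptor that gives the family its second name, averaged 1.15 TPM in liver, 1.78 TPM in pancreas and 4.21 TPM in duodenum, and was lower in liver against duodenum, at a log2 difference of -2.03 ± 0.45 (edgeR adjusted p = 0.0113). Ly6k averaged 0.0659 TPM in liver, 0.322 TPM in pancreas and 1.25 TPM in duodenum (log2 difference of liver against duodenum -4.43 ± 0.82, edgeR adjusted p = 0.00385). Cd59a, an inhibitor of the complement membrane attack complex, averaged 0.802 TPM in liver, 0.287 TPM in pancreas and 1.21 TPM in duodenum, and differed by -2.12 ± 0.35 for pancreas against duodenum (edgeR adjusted p = 0.00134).

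In liver against pancreas edgeR called 0 of the 36, with an unadjusted p under 0.05 for 3, DESeq2 called 2, Cd59a and Ly6k, and limma on log2(TPM + 0.5) called 0. Other family members that averaged at least 1 TPM in some tissue, none of them called by edgeR, included Ly6g6c (3.39 TPM in liver, 3.43 TPM in pancreas and 2.59 TPM in duodenum), Cd59b (2.37, 2.05 and 1.68 TPM in that order), Ly6m (2.29, 2.45 and 2.03 TPM), Lypd5 (1.80, 1.66 and 1.35 TPM) and Ly6g5b (1.08, 1.50 and 0.757 TPM). Each of them was far below Ly6e, and below Ly6a in every tissue. The relatives of Plac8 by domain, Plac8l1 and Cnfn, both averaged below 1 TPM in every tissue. EdgeR called 0 of these 2 in each comparison, as did DESeq2, and 0 had an unadjusted p under 0.05.

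Genes that build the GPI anchor and attach it to proteins such as the Ly6 family had overlapping sums in the 3 tissues. Of 29 listed, 28 were tested, and they summed to 479 to 514 TPM in liver, 472 to 513 TPM in pancreas and 423 to 535 TPM in duodenum. EdgeR called 0 of the 28 in all 3 comparisons. At an unadjusted p under 0.05 there were 5 in liver against duodenum, 2 in pancreas against duodenum and 1 in liver against pancreas, and DESeq2 called 3, 1 and 1 in that order.

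Interferon-stimulated genes, listed because Ly6a and Ly6e are known to be induced by interferons, summed to 1242 to 1451 TPM in liver, 896 to 1278 TPM in pancreas and 668 to 868 TPM in duodenum. Of 36 tested, 10 were called higher in liver against duodenum, 6 higher and 1 lower in pancreas against duodenum, and 2 higher in liver against pancreas. Shares of all genes called higher and lower were 3.37% and 3.95%, 3.76% and 3.94%, and 0.426% and 0.681% in these comparisons in turn. Mx1, an antiviral GTPase, was higher in both, with log2 differences of 2.37 ± 0.16 for liver against duodenum (SE; edgeR adjusted p = 8.16e-07) and 2.05 ± 0.16 for pancreas against duodenum (adjusted p = 1.57e-06). Iigp1, an interferon-inducible GTPase, had the larger of the called differences in liver against pancreas, at 2.03 ± 0.32 on the log2 scale (edgeR adjusted p = 0.00493). The part of interferon in the levels of Ly6a and Ly6e was not tested.

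Endothelium, in which Ly6a, Ly6c1 and Cd34 are known to be expressed, was represented by 12 markers that summed to 35.8 to 43.3 TPM in liver, 37.2 to 43.7 TPM in pancreas and 69.9 to 89.3 TPM in duodenum. Of these 12, 8 had their highest mean in liver, the tissue with most Ly6a, 1 in pancreas and 3 in duodenum. By edgeR, 1 was called lower in liver against duodenum, 3 lower in pancreas against duodenum and 1 higher in liver against pancreas. Over all genes, 3.95% were called lower in the first, 3.94% lower in the second and 0.426% higher in the third. Vwf, highest in duodenum, made up most of the sum and averaged 22.6 TPM in liver, 30.7 TPM in pancreas and 56.9 TPM in duodenum, while Cdh5, Kdr and Emcn averaged below 1 TPM in each tissue. None was at 0 in all libraries of a tissue. The part of endothelial RNA in the Ly6a levels was not tested.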

How the data were processed

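The authors deposited a table of estimated counts and a table of TPM for 55401 genes in 12 libraries, 4 per tissue, and 0 columns of values lacked a sample. Kallisto (no version named) and the build GRCm39 are listed per the submitters' processing notes; transcript set and strand setting are not given in the sources here. Among 12632 genes above 1 TPM throughout, count over TPM was the product of a gene factor and a library factor (largest deviation 1e-09 in log2), as when counts are rebuilt from TPM.

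The estimated counts, rounded, entered edgeR 4.0.16 (R 4.3.3) with filterByExpr (minimum count 10; 44624 genes), TMM, 1 robust quasi-likelihood fit of all 12 libraries without a block. A call is a Benjamini-Hochberg adjusted p under 0.05, adjusted over all genes tested. An SE is the absolute log2 difference over the square root of F, and 95% intervals are 1.96 SE. CPM values carry TMM factors, with a prior count of 2 on the log2 scale. The fit was also run on simulated counts, the outcome of which is not given here, and no result rests on that run. DESeq2 1.42.0 and limma 3.58.1 served as alternatives. One gene and 1 sequence motif are not reported here. Sequences were aligned with Biopython 1.88 in Python 3.11.15, coding ones globally and upstream windows locally. No protein table was at hand, so coding identity took the place of a planned comparison of proteins.

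The 7 genes and 13 lists (208 symbols) were chosen with earlier results of these data known. The lists cover related Ly6 family genes, PLAC8 domain relatives, GPI anchor synthesis, interferon-stimulated genes and markers of cDC1, plasmacytoid DCs, monocytes, B cells, plasma cells, T and NK cells, endothelium, neutrophils and stroma. Bst2 and Ly6g each stand in 2 of them. Named genes are the 7, the 2 closest in pattern to each (predicted genes and unnamed clones left out), up to 4 called genes per list and comparison with the largest log2 difference, and related family genes at 1 TPM or more in some tissue. Outside the rule, Ly6a2, Siglech, Tcf4, Pld4, Bst2, Lyz2, Vwf, Xcr1, Clec9a, Cdh5, Kdr and Emcn were chosen after their values were seen. No pair of replicates agreed within sampling noise (chi-square per degree of freedom 80.9 to 428 over 18 pairs).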

Additional observations from a re-analysis of the deposited data

Results flagged for a closer look

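Ly6d in liver was 11.7 TPM in library 4, while the other 3 liver libraries lay between 0.155 and 1.57 TPM. The gap to the next library was 0.877 of the whole range in TPM, above Dixon's 95% critical value for 4 samples. The ratio was not taken on the log2 scale, where low values weigh more. In log2 CPM, liver 3 stood at -2.79 and liver 4 at 3.19 relative to the tissue mean.

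Plac8 in pancreas was 123 TPM in library 4, while the other 3 pancreas libraries lay between 44.6 and 51.5 TPM. The gap was 0.912 of the range in TPM. In log2 CPM, pancreas 1 stood at -0.57 and pancreas 4 at 1.03 relative to the tissue mean. Such a gap was looked for in TPM in 21 groups of 4 libraries, each gene in each tissue. Chance gives one in about 1 in 20 groups if the values are normally distributed, which was not checked for TPM.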

How the results depend on the processing

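Over 24 alternative settings (21 for Ly6c1), no called difference of the 7 genes changed sign. The count called in liver against duodenum, 1 by edgeR with TMM, was 2 with limma at each pseudocount (0.1, 0.5 and 1) and without its filter, with the replicate block, and without liver 4 and pancreas 4 together; Ly6d was the gene added. The count in pancreas against duodenum, 3, was 5 with DESeq2, which added Ly6d and Ly6i, and 4 with each limma setting, which added Ly6d. The count in liver against pancreas, 4, was 5 with DESeq2, which added Ly6i, and 2 with RLE size factors and without liver 2, pancreas 3 and pancreas 4. Leaving out each library in turn gave 1 to 1 in liver against duodenum, 2 to 4 in pancreas against duodenum and 2 to 4 in liver against pancreas. Related family genes called in pancreas against duodenum, 2 with edgeR, were 4 with DESeq2 and 2 to 3 without single libraries. In liver against pancreas they were 0 with edgeR, 2 with DESeq2 and 0 to 1 without single libraries, the 1 being Cd59a without duodenum 2. The cause of these changes was not tested.

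Over all genes, 3265 were called in liver against duodenum (2069 to 5133 over the alternatives), 3437 in pancreas against duodenum (1712 to 5074) and 494 in liver against pancreas (177 to 1158). DESeq2 gave the highest of each and leaving out liver 2, pancreas 3 and pancreas 4 the lowest. The median log2 difference of all genes in liver against duodenum was 0.10 with TMM, 0.02 with RLE size factors and 0.25 with library totals.

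The replicate numbers did not pair the libraries: of 12 same-number pairs, 1 had a correlation of deviations above 0.1 (-0.0515 to 0.104), and 5 of 12 libraries correlated best with their own number. With the replicate block, 2, 4 and 4 of the 7 genes were called in liver against duodenum, pancreas against duodenum and liver against pancreas. Depth limits Ly6c1, Ly6i and Ly6d, which had fewer than 50 estimated counts in their lowest library; the TPM of Ly6c1 and Ly6c2 also rests on how reads of near-identical transcripts were split.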

Other observations

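Some cDC1 identity genes differed between the tissues in which the Ly6 genes were described. Of 11 tested, Cadm1 was called higher and Itgae, the gene of CD103 used in the sort, lower in liver against duodenum. In pancreas against duodenum Cadm1 and Cd24a, an anchored sialoglycoprotein, were called higher, and Tlr3 and Itgae lower. Cd24a averaged 294 TPM in pancreas and 148 TPM in duodenum, a log2 difference of 0.92 ± 0.15 (SE; edgeR adjusted p = 0.0015). In liver against pancreas edgeR called 0 of the 11, with 4 at an unadjusted p under 0.05, and DESeq2 called 0. The 11 genes summed to 1856 to 2058 TPM in liver, 1672 to 1904 TPM in pancreas and 1451 to 1915 TPM in duodenum. Among all genes, 3.37% were called higher and 3.95% lower in liver against duodenum, and 3.76% and 3.94% in pancreas against duodenum.

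Plasma cell genes were the list with most calls for its size in both comparisons with duodenum. Of the 10, 6 were lower in liver against duodenum and 6 in pancreas against duodenum, beside 3.95% and 3.94% of all genes. In liver against pancreas 1, Igha, was lower, beside 0.681% of all genes, and the monocyte list had the largest share called (14.3%). Igha averaged 0.141 TPM in liver, 2.00 TPM in pancreas and 4084 TPM in duodenum. T and NK cell genes summed to 11.0 to 20.6 TPM in liver, 12.3 to 19.0 TPM in pancreas and 15.5 to 20.3 TPM in duodenum. Of these 14, Cd4 and Cd8b1 were called lower in liver against duodenum, Il7r higher and Cd8b1 lower in pancreas against duodenum, and 0 in liver against pancreas (4 at an unadjusted p under 0.05; 0 with DESeq2). Stroma genes summed to 154 to 175 TPM in liver, 134 to 179 TPM in pancreas and 211 to 255 TPM in duodenum. Gsn was the 1 called lower in liver against duodenum; Lum and Dpt were called higher and Gsn lower in pancreas against duodenum; and 0 of 10 were called in liver against pancreas by edgeR, with 4 at an unadjusted p under 0.05 and 4 with DESeq2. Neutrophil genes summed to 6.02 to 6.75 TPM in liver, 5.89 to 19.2 TPM in pancreas and 4.71 to 20.9 TPM in duodenum. EdgeR called 0 of 11 in the 3 comparisons, with 1, 0 and 2 at an unadjusted p under 0.05 and 1, 0 and 0 called by DESeq2, in liver against duodenum, pancreas against duodenum and liver against pancreas.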
